A study of Mus musculus with 6 samples.

Results

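The cell cycle and DNA replication genes described here were chosen by name, as known genes of these processes, with no threshold on a measured value. The list held 40 mouse genes, of which 17 act in mitosis, 13 in DNA replication and 10 in cyclin D control of the G1 phase. Of these, 25 had a row in the deposited table of 13226 genes and 15 had none, so values are given for 25 genes. RNA was sequenced from whole tibialis anterior (TA) muscle, a fast muscle of the lower hindlimb, of male C57BL/6 mice aged 8 weeks. Muscles were taken 7 days after injection of an adeno-associated viral vector of serotype 6 that carried a short hairpin RNA against Yap (AAV6:Yap-shRNA), and the opposite TA muscle of the same animal received the control vector. There were 3 muscles in each of 2 groups. The titles of the control samples name an empty vector whereas their vector field gives AAV6:LacZ-shRNA, and these muscles are called control. The labels describe the Yap hairpin as cloned into an AAV6 plasmid with a CMV-eGFP cassette. Each group is a local treatment of 1 muscle, and whole muscle RNA pools fibres with every other cell type of the tissue.

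Cells prepare to divide in G1, when D-type cyclins with Cdk4 or Cdk6 phosphorylate the retinoblastoma protein and release E2F factors, which switch on the genes of DNA synthesis. A later programme, controlled in part through CHR elements and CCAAT boxes in promoters, raises the genes of mitosis. Adult muscle fibres are post-mitotic, whereas satellite cells, endothelial cells, macrophages and other interstitial cells can divide. Yap is a transcriptional co-activator that works with TEAD factors and is known for driving proliferation genes in dividing cells.

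The 6 libraries held 11987167 to 12710393 counts. Yap1 (ENSMUSG00000053110; GRCm38 chr9:7931999-8004596), the gene targeted by the hairpin, was counted 915, 781 and 833 times in control muscles and 381, 311 and 495 times in Yap-shRNA muscles, with no overlap between the groups. Its fold was 0.465 (95% interval 0.361 to 0.599), and its adjusted p was 0.436 in the quasi-likelihood test of edgeR and 5.85e-07 in DESeq2. All 8 markers of muscle fibres had a row, among them Acta1, Ckm and Myh4, and their summed level was 143848 to 169670 CPM (counts scaled to library size by TMM) over the 6 muscles. The summed level of 3 tendon markers was 320 CPM in control muscle 1 and 290 CPM in Yap-shRNA muscle 3, against 36.9 to 56.2 CPM in the other 4 muscles. These libraries stand apart, and values without them are given for most members beside the results or with the alternative settings.

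The promoters are described first, since the mitotic and replication genes carry different motifs near their starts. RefSeq promoters of build GRCm38.p6, from 250 bases before to 50 bases after a start, were found for 33 of the 40 genes, in 36 promoters. Those of Ccnd1, Ccnd2, Rb1, Mcm4, Aurkb, Tpx2 and Ccna2 were not matched. Genes without a row were kept in the promoter counts that follow, and most of the mitotic promoters belong to such genes. A CHR element (TTTGAA or TTCGAA, either strand) lay in 11 of 15 mitotic promoters (73.3%), in 3 of 13 replication promoters (23.1%) and in 0 of 8 G1 promoters, against 19.2% of all 32851 promoters in the table. An E2F core, searched on either strand as TTCCCGC, in the variant form TTGGCGC, in the further form TTCGCGC and in the last form TTGCCGC, lay in 9 of 13 replication promoters (69.2%), in 3 of 15 mitotic promoters (20.0%) and in 1 of 8 G1 promoters (12.5%), against 9.57% of all promoters. The CCAAT box was present in 13 of 15 mitotic promoters (86.7%) and 11 of 13 replication promoters (84.6%), and in 3 of 8 G1 promoters (37.5%), beside 37.4% of all promoters. The TEAD core GGAATG lay in 3 of the 36 promoters (8.33%), in those of Nusap1, Mcm3 and Ccnd3, against 14.7% of all promoters. E2F cores can overlap each other and a CCAAT box, and Prc1, Mcm7 and Ccnd3 contributed more than 1 promoter, so the matches are not independent. A match is a run of letters and not a measured binding site.

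**Figure D1:**
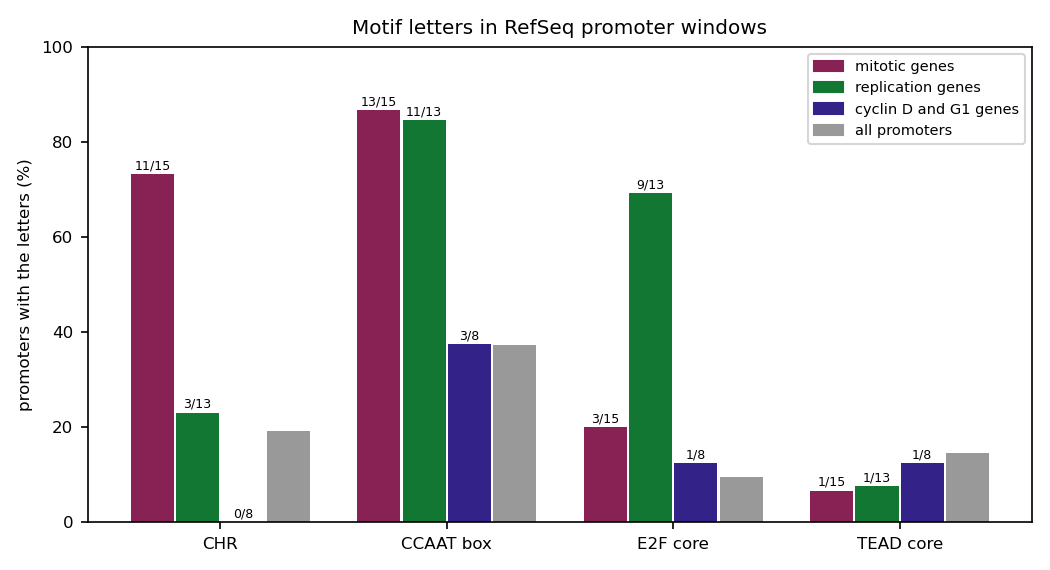
Percent of RefSeq promoters (250 bases before to 50 after the start, GRCm38.p6) that hold each motif on either strand, for the mitotic, replication and G1 genes and for all 32851 promoters. CHR elements are in 73.3% of the mitotic and E2F cores in 69.2% of the replication promoters.

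Stretches of 170 bases upstream of the start are shown for the genes on which the results below turn, namely the helicase genes Mcm6 and Mcm2, whose groups did not overlap, and Mcm5 and Mcm3, which varied between muscles, the mitotic genes Top2a and Kif11, and Cdkn1b as an abundant G1 gene. They are written 5′ to 3′ on the strand of the gene, and capitals mark matches on either strand. Thus ATTGG is CCAAT on the other strand, TTCAAA is TTTGAA, and GCGCCAA is TTGGCGC.
Mcm6 (GRCm38.p6 chr1:128359706-128359875, minus strand): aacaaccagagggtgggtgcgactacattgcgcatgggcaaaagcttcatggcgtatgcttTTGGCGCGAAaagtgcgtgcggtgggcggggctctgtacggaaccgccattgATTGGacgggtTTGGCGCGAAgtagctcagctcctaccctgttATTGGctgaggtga
Mcm2 (GRCm38.p6 chr6:88898781-88898950, minus strand): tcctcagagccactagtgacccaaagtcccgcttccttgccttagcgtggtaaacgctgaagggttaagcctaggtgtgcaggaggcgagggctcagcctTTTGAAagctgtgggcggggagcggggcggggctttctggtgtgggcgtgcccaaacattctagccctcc
Mcm5 (GRCm38.p6 chr8:75109339-75109508, plus strand): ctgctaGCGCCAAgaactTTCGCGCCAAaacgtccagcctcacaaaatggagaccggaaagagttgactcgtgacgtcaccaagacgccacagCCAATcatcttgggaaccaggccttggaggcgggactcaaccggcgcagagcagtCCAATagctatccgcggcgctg
Mcm3 (GRCm38.p6 chr1:20820313-20820482, minus strand): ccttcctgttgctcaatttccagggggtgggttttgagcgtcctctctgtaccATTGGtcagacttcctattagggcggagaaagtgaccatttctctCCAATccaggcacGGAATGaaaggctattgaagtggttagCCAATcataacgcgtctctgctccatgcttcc
Top2a (GRCm38.p6 chr11:99024190-99024359, minus strand): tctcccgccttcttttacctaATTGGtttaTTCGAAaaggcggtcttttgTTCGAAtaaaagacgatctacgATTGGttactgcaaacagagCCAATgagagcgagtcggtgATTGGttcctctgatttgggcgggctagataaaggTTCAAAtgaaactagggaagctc
Kif11 (GRCm38.p6 chr19:37376212-37376381, plus strand): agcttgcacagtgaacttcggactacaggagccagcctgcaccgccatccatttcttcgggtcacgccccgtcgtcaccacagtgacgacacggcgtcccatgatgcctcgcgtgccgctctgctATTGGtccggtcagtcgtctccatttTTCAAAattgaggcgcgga
Cdkn1b (GRCm38.p6 chr6:134920231-134920400, plus strand): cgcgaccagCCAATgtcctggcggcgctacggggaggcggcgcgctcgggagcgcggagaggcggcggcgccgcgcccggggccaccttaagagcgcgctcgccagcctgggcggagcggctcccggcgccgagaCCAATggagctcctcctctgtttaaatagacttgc
Mcm6 held 4 E2F core matches in this stretch, as 2 copies of TTGGCGCGAA in which a core on each strand overlaps. Mcm5 held 3, of which a pair overlap. Mcm3 had its 3 E2F core matches in the bases after the start, which are not printed, and held the TEAD core. Mcm2 held a CHR element and no E2F core. Top2a held 3 CHR elements and 4 CCAAT boxes.

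Which members had a row differed by group. All but 1 of the 13 replication genes had a row (Cdc6, a helicase loader, did not), as did 9 of the 10 G1 genes, with Ccne1, which encodes the S-phase cyclin E1, as the exception. Of the 17 mitotic genes, 4 had a row: Top2a, the topoisomerase that untangles chromosomes, Kif11, the motor that separates spindle poles, Tpx2, a spindle assembly factor, and Prc1, which bundles the central spindle. The other 13 were Mki67, a chromosome surface protein used as a proliferation marker, the cyclins Ccna2, Ccnb1 and Ccnb2 with their kinase Cdk1, the kinases Aurkb, Plk1, Bub1 and Bub1b, and Birc5, Cdc20, Cenpe and Nusap1. They had no row, so only their promoters, where matched, are described here. The lowest total over the 6 libraries of any gene in the table was 60 reads, so a gene with no row has no measured level here and cannot be compared between groups.

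Most members stood low in the muscle transcriptome, with a median percentile of 0.902 for the mitotic, 23.8 for the replication and 28.9 for the G1 genes. Compared per length, as CPM per kilobase of exon averaged over the 6 muscles, Cdk4, a G1 kinase, stood highest at 9.51 (8.78 to 10.9 over the muscles), with Cdkn1b, the p27 inhibitor of cyclin-dependent kinases, at 9.32 (7.71 to 10.5). Their ranges overlapped each other and no other member. Below a gap came Rrm1, the large subunit of ribonucleotide reductase, at 3.62, Pcna, the sliding clamp of DNA polymerases, at 3.52, and Rb1, the retinoblastoma protein, at 3.18, and these 3 were again apart from the next gene, Ccnd3, at 1.73. From Ccnd3 downwards every gene overlapped its neighbour in the order, through Mcm2 (1.66), Mcm4 (1.40), Mcm7 (1.38), Ccnd1 (1.21), Ccnd2 (1.20), Mcm3 (1.03), Cdk2 (0.889), Cdc45 (0.885), Mcm6 (0.800), Tpx2 (0.594), Rrm2 (0.539), Mcm5 (0.508), E2f1 (0.335) and Cdk6 (0.199), to Chaf1a, Prc1, Tyms, Kif11 and Top2a (0.137 to 0.0954). The median level per kilobase was 0.121 for the 4 mitotic genes, 0.958 for the 12 replication genes and 1.21 for the 9 G1 genes, beside 2.83 for the 13199 genes of known exon length. Top2a lay at percentile 0.364 of those genes and Cdk4 at percentile 77.0.

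**Figure D2:**
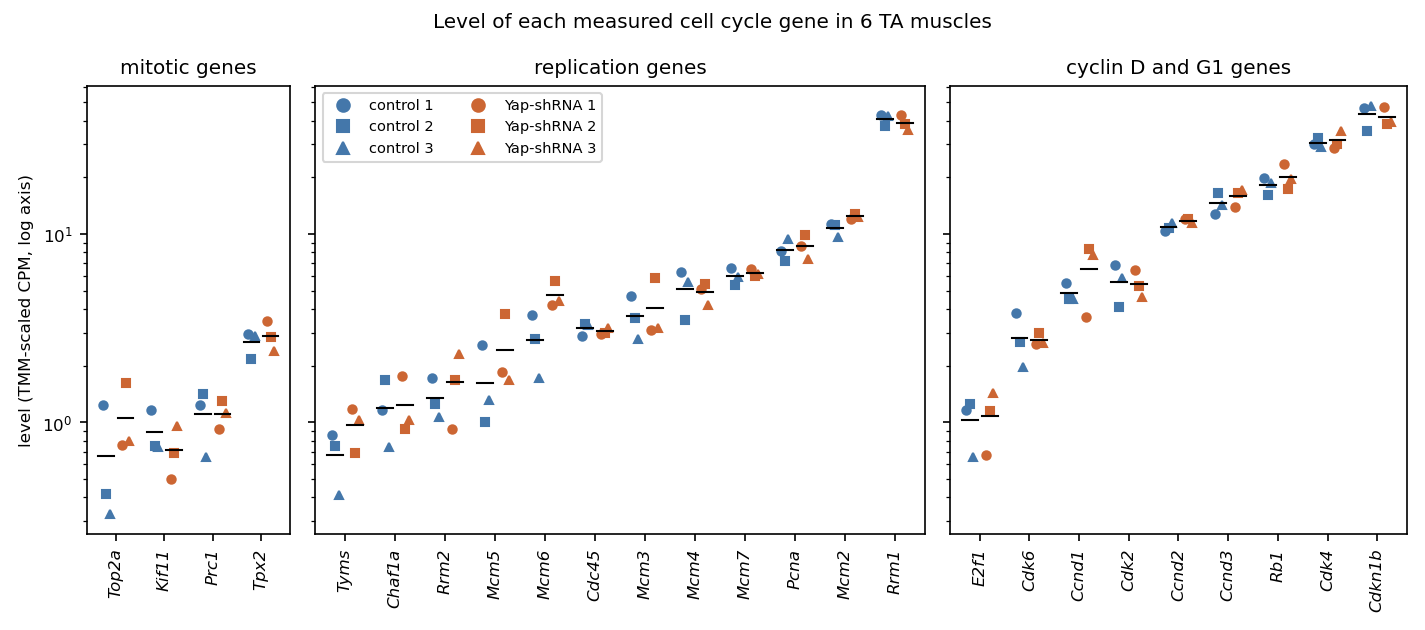
Level of each of the 25 genes in each muscle, in TMM-scaled CPM on a log axis, in panels for the mitotic, replication and G1 genes; black bars are group means. Control and Yap-shRNA points overlap for all genes but Mcm2 and Mcm6, and the mitotic genes lie at or below 3.44 CPM.

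The comparison of Yap-shRNA with control muscles asked whether knockdown of Yap for 7 days altered this programme. None of the 25 genes passed an adjusted p of 0.05 in edgeR's quasi-likelihood test, and the same was true of 0.0% of all 13226 genes, so the absence of calls is not particular to these genes. At an unadjusted p below 0.05, 1 of the 25 genes, Mcm6, was found, against 1.75% of all genes (232). These counts rested on single muscles, being 3 members and 957 genes without control muscle 1, 2 members and 197 genes without Yap-shRNA muscle 1, 0 members and 129 genes without control muscle 3, and 0 members and 223 genes without Yap-shRNA muscle 2. Without both control muscle 1 and Yap-shRNA muscle 3 they were 3 members and 736 genes. Of the 25 genes, 18 were nominally higher and 7 nominally lower in Yap-shRNA muscles, with a median log2 fold change of 0.085, while 48.9% of all genes were nominally higher and their median was -0.0029. All 3 Yap-shRNA muscles lay above all 3 control muscles for Mcm2 and Mcm6, against 2.56% of all genes, and for none of the 25 did all 3 lie below, against 2.71% of all genes (5.27% in either direction). In whole muscle, a change in the number of cells of a type and a change in RNA per cell cannot be told apart. The p-values rest on these 6 samples alone, with the variance of each gene moderated over all genes. They do not use the pairing of muscles within animals.

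The precision differed widely between genes. Standard errors of the log2 fold change ran from 0.11 for Rrm1 to 0.55 for Top2a. The 95% interval of the difference stayed within a 2-fold change in both directions for 18 of the 25 genes, namely 8 of 9 G1 genes, 8 of 12 replication genes and 2 of 4 mitotic genes. Within a log2 fold change of 0.5 in both directions it stayed for 10 genes, none of them mitotic. For Top2a, Kif11 and Mcm5, among others, the interval reached beyond 2-fold, so a difference of that size was not excluded.

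**Figure D3:**
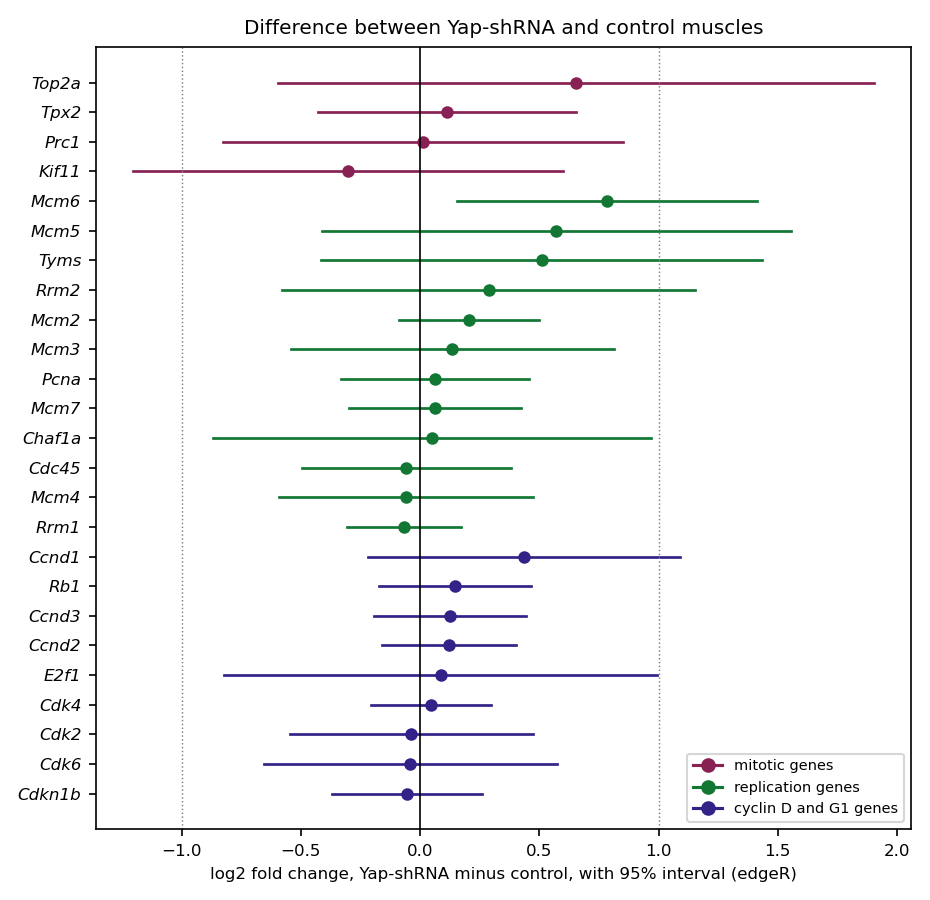
Log2 fold change (Yap-shRNA minus control) with its 95% interval for the 25 genes, by group; dotted lines mark 2-fold in each direction. The interval of Mcm6 (0.15 to 1.41) lies above 0, and the intervals of the other 24 genes include 0.

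Of the 4 mitotic genes, Top2a, Kif11 and Prc1 were near the lower limit of the table, at 65, 60 and 83 reads in all, and Tpx2 had 207. Top2a was counted 16, 5 and 4 times in control muscles and 9, 21 and 10 times in Yap-shRNA muscles. The highest values were in Yap-shRNA muscle 2 and control muscle 1, and the groups overlapped. At this depth a count of 4 has a 95% Poisson interval of 1.09 to 10.2 and a count of 21 an interval of 13.0 to 32.1, which covers counting error only. The level was 0.664 ± 0.506 CPM in control and 1.05 ± 0.483 CPM in Yap-shRNA muscles (SD, n = 3 each). Its log2 fold change was 0.65 (SE 0.55, 95% interval -0.60 to 1.90), and it depended on single muscles. It was 0.21 without Yap-shRNA muscle 2, 0.33 without control muscle 3, 0.41 without control muscle 2 and 1.48 without control muscle 1. Without both control muscle 1 and Yap-shRNA muscle 3 it was 1.65, with an adjusted p of 0.874 in the quasi-likelihood test of edgeR.

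Kif11 was counted 15, 9 and 9 times in control and 6, 9 and 12 times in Yap-shRNA muscles, and was the mitotic gene that was nominally lower, with a log2 fold change of -0.30 (SE 0.40, 95% interval -1.20 to 0.60). Without control muscle 1 and Yap-shRNA muscle 3 its log2 fold change was -0.31. Tpx2, the mitotic gene with the highest level per kilobase, was counted 38, 26 and 35 times in control and 41, 37 and 30 times in Yap-shRNA muscles (log2 fold change 0.11, SE 0.24). Prc1 was counted 16, 17 and 8 times against 11, 17 and 14 times (log2 fold change 0.012, SE 0.37), and 11.1% of its exon bases are shared with Rccd1. The values of these 3 genes overlapped between the groups. The median log2 fold change of the 4 genes was 0.062. Summed over the 4 genes, the level was 6.62, 4.77 and 4.60 CPM in control and 5.62, 6.45 and 5.26 CPM in Yap-shRNA muscles, or 5.33 ± 1.12 against 5.78 ± 0.609 CPM (SD, n = 3 each). The difference of the means was 0.452 CPM, less than the SD of either group, and 1.35 CPM without control muscle 1 and Yap-shRNA muscle 3.

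Mcm2 to Mcm7 encode the 6 subunits of the helicase that is loaded on replication origins in G1 and unwinds DNA in S phase. Mcm6 (ENSMUSG00000026355; chr1:128331590-128359664, minus strand) was counted 48, 33 and 21 times in control muscles and 50, 73 and 55 times in Yap-shRNA muscles. Scaled, these were 3.74, 2.76 and 1.72 CPM in control and 4.19, 5.61 and 4.39 CPM in Yap-shRNA muscles, with the lowest Yap-shRNA muscle above the highest control muscle by less than the SD of either group. The means were 2.74 ± 1.01 and 4.73 ± 0.765 CPM (SD, n = 3 each). The fold was 1.72 (95% interval 1.11 to 2.66) and the log2 fold change was 0.78 (SE 0.28), with an unadjusted p of 0.0201 and an adjusted p of 1.00 in the quasi-likelihood test of edgeR; over the alternatives the adjusted p ran from 0.520 to 1.00. An exact two-sided permutation test gave p = 0.10, the smallest that 3 muscles against 3 allow when all 6 are shuffled freely. The pairing of muscles within animals was not used in it. Groups that do not overlap always give this value, so it adds nothing to the absence of overlap. The difference in Mcm6 is thus not past the threshold. Its log2 fold change was 0.54 to 1.08 with each muscle left out. Because the groups did not overlap, leaving out 1 muscle could not turn its direction.

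Mcm2 (ENSMUSG00000002870; chr6:88883474-88898780, minus strand), the subunit with the highest level per kilobase, was counted 146, 134 and 118 times in control and 144, 166 and 155 times in Yap-shRNA muscles. Its level was 11.4, 11.2 and 9.68 CPM in control and 12.1, 12.7 and 12.4 CPM in Yap-shRNA muscles, again with no overlap. The means were 10.7 ± 0.928 and 12.4 ± 0.334 CPM (SD, n = 3 each). The exact two-sided permutation test, without pairing, gave p = 0.10, a value again fixed by the absence of overlap. The log2 fold change was small, 0.21 (SE 0.13, 95% interval -0.088 to 0.50), with an adjusted p of 1.00 in the quasi-likelihood test of edgeR. Without control muscle 1 and Yap-shRNA muscle 3 the log2 fold change was 0.25.

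The other 4 helicase genes overlapped between the groups. Mcm5 was counted 33, 12 and 16 times in control and 22, 49 and 21 times in Yap-shRNA muscles, with a log2 fold change of 0.57 (SE 0.44, 95% interval -0.41 to 1.55) that became 0.11 without Yap-shRNA muscle 2, 1.07 without control muscle 1 and 1.27 without control muscle 1 and Yap-shRNA muscle 3. Mcm3 was counted 60, 43 and 34 times in control and 37, 76 and 40 times in Yap-shRNA muscles (log2 fold change 0.14, SE 0.30), with its highest values, like those of Mcm5 and Top2a, in Yap-shRNA muscle 2 and control muscle 1. The high values of these 3 genes thus lay in 1 muscle of each group. Mcm4 was counted 81, 42 and 68 times against 61, 71 and 53 times (log2 fold change -0.059, SE 0.24). Mcm7 was counted 85, 64 and 72 times against 78, 78 and 77 times (log2 fold change 0.061, SE 0.16) and was the steadiest subunit, its highest muscle standing 1.24 times above its lowest, where Mcm5 had a ratio of 3.75 and Mcm6 of 3.25. Whether Mcm6 differed from the other subunits in its response was not tested. Summed over the 6 subunits, the level was 35.3, 27.4 and 27.0 CPM in control and 32.9, 39.4 and 32.0 CPM in Yap-shRNA muscles, so that control muscle 1 exceeded 2 of the 3 Yap-shRNA muscles.

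**Figure D4:**
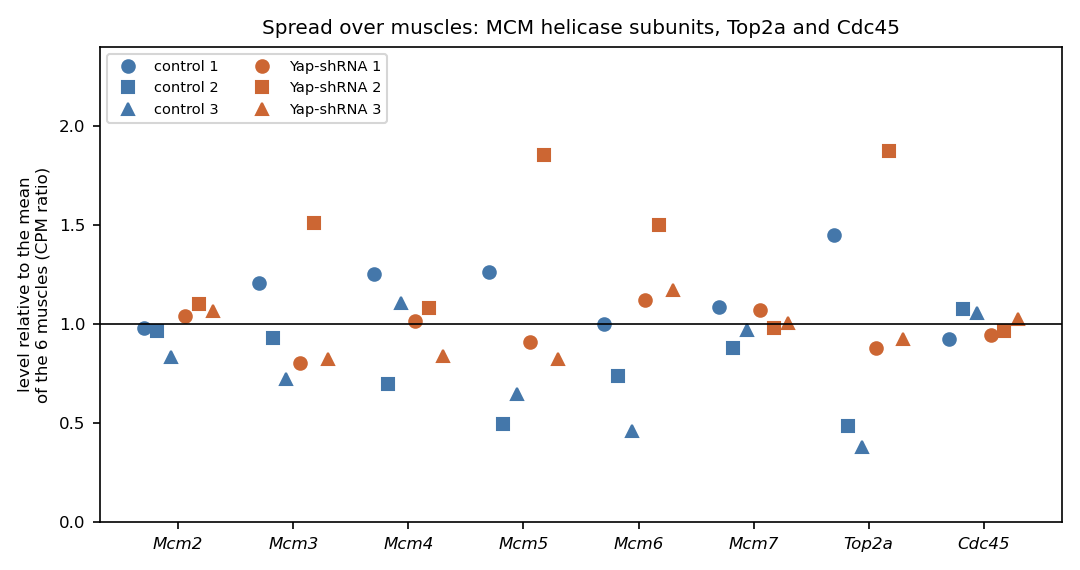
Levels of Mcm2 to Mcm7, Top2a and Cdc45 in each muscle relative to the mean of the 6 muscles for that gene (control and Yap-shRNA muscles numbered 1 to 3). Top2a, Mcm3 and Mcm5 peak in Yap-shRNA muscle 2 with control muscle 1 next, and Cdc45 and Mcm7 stay near their mean.

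Among the genes that act with the helicase, Cdc45, which joins it at the active fork, was counted 37, 40 and 40 times in control and 35, 39 and 40 times in Yap-shRNA muscles (log2 fold change -0.059, SE 0.19). Its variance between muscles was 0.0554 of that expected from counting alone, the lowest of the 25 genes. Pcna was counted 105, 86 and 115 times in control and 103, 129 and 92 times in Yap-shRNA muscles (log2 fold change 0.062, SE 0.17). Chaf1a, a subunit of the chaperone that deposits histones behind the fork, was counted 15, 20 and 9 times against 21, 12 and 13 times (log2 fold change 0.051, SE 0.41). However, 52.5% of the Chaf1a exon bases overlap Ubxn6 on the opposite strand, and the strand setting of the counting is not given in the sources used here, so reads of these genes cannot be told apart.

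The genes that supply deoxynucleotides had the most and the fewest reads of the replication group. Rrm1 was counted 549, 446 and 516 times in control and 508, 500 and 448 times in Yap-shRNA muscles, or 40.8 ± 3.03 against 38.9 ± 3.47 CPM (SD, n = 3 each). Its fold was 0.954 (95% interval 0.809 to 1.12), a narrow interval that includes no change. Rrm2, the small subunit of the same enzyme and the one whose abundance is tied to S phase, was counted 22, 15 and 13 times in control and 11, 22 and 29 times in Yap-shRNA muscles (log2 fold change 0.29, SE 0.38). Per kilobase, Rrm1 stood at 3.62 and Rrm2 at 0.539 CPM. Tyms, which makes thymidylate, was counted 11, 9 and 5 times against 14, 9 and 13 times (log2 fold change 0.51, SE 0.41). Over the 12 replication genes, 9 were nominally higher and 3 nominally lower, the median log2 fold change was 0.099, and the summed level was 85.3 ± 6.99 CPM in control and 89.2 ± 5.88 CPM in Yap-shRNA muscles (SD, n = 3 each). The difference of the summed means was 3.85 CPM, within the SD of either group, and 10.9 CPM without control muscle 1 and Yap-shRNA muscle 3.

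The D-type cyclins link growth signals to the cycle. Ccnd1 (cyclin D1, ENSMUSG00000070348; chr7:144929931-144939925, minus strand) was counted 71, 54 and 55 times in control and 43, 108 and 97 times in Yap-shRNA muscles. Yap-shRNA muscle 1 was the lowest of all 6 and the other 2 Yap-shRNA muscles were the highest, so the Yap-shRNA muscles enclosed the control muscles on both sides. The means were 4.85 ± 0.584 and 6.55 ± 2.56 CPM (SD, n = 3 each), and the log2 fold change was 0.43 (SE 0.29, 95% interval -0.22 to 1.09). It was 0.72 without Yap-shRNA muscle 1 and 0.23 without Yap-shRNA muscle 2. Part of the Ccnd1 exons, 23.4% of their bases, is shared with LTO1 on the opposite strand.

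Ccnd2 (cyclin D2) was steadier, at 133, 129 and 139 counts in control and 143, 156 and 143 in Yap-shRNA muscles, and its variance between muscles was 0.567 of that expected from counting, where that of Ccnd1 was 8.66 times the counting variance. The log2 fold change of Ccnd2 was 0.12 (SE 0.13, 95% interval -0.16 to 0.40). Ccnd3 (cyclin D3) was counted 164, 198 and 174 times in control and 166, 215 and 214 times in Yap-shRNA muscles, with a log2 fold change of 0.13 (SE 0.14). Per kilobase, the ranges of Ccnd1 and Ccnd2 overlapped, at 1.21 and 1.20 CPM.

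The kinases that these cyclins activate gave close values in the 2 groups. Cdk4 was counted 384, 389 and 352 times in control and 340, 393 and 444 times in Yap-shRNA muscles, or 30.4 ± 1.88 against 31.4 ± 3.59 CPM (SD, n = 3 each), with a log2 fold change of 0.044 (SE 0.11, 95% interval -0.21 to 0.30). Tspan31 overlaps 19.7% of its exon bases. Cdk6 was counted 49, 32 and 24 times against 31, 39 and 33 times (log2 fold change -0.042, SE 0.27). Cdk2, the partner of cyclins E and A at the start of S phase, was counted 88, 49 and 71 times against 77, 69 and 58 times (log2 fold change -0.037, SE 0.23). Per kilobase, Cdk4 was higher than Cdk6 in every muscle, at 9.51 against 0.199 CPM.

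The brakes on G1 were among the more abundant members. Rb1 was counted 254, 192 and 228 times in control and 280, 226 and 245 times in Yap-shRNA muscles, or 18.2 ± 1.91 against 20.1 ± 3.11 CPM (SD, n = 3 each; log2 fold change 0.15, SE 0.14). Cdkn1b (ENSMUSG00000003031; chr6:134920401-134925513, plus strand) was counted 603, 420 and 580 times in control and 562, 497 and 496 times in Yap-shRNA muscles, or 43.2 ± 7.02 against 41.6 ± 4.84 CPM (SD, n = 3 each). Control muscle 2 was the lowest and control muscle 3 the highest, so its spread was within the control group. The log2 fold change was -0.055 (SE 0.14, 95% interval -0.37 to 0.26). E2f1, the activator that Rb1 restrains, was counted 15, 15 and 8 times against 8, 15 and 18 times (log2 fold change 0.085, SE 0.40). Over the 9 G1 genes, 6 were nominally higher and 3 nominally lower, the median log2 fold change was 0.085, and the summed level was 131 ± 7.04 CPM in control and 137 ± 4.07 CPM in Yap-shRNA muscles (SD, n = 3 each). The difference of the summed means was 5.08 CPM, between the SDs of the groups, and it ran from 1.13 CPM without control muscle 2 to 7.87 CPM without control muscle 1. Without control muscle 1 and Yap-shRNA muscle 3 the difference was 6.46 CPM and the median log2 fold change 0.11.

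The spread between muscles was set against counting error. The variance between the 6 muscles exceeded the counting variance in 20 of the 25 genes and was more than 2 times as large in 15, with a median ratio of 0.990 for the mitotic, 2.26 for the replication and 2.54 for the G1 genes, beside 2.66 for all genes. The ratio was highest for Cdkn1b (9.84), Ccnd1 (8.66), Mcm5 (7.03) and Mcm6 (6.81). At an equal relative spread this ratio rises with the number of reads, and it includes any difference between the groups. A ratio above 1 also arises for some genes from counting alone, and the shares of all genes above 1 or 2 were not counted. Cdkn1b, with 3158 reads in all, had a highest-to-lowest ratio of 1.36 in scaled level, against 3.75 for Mcm5 with 153 reads. Yap-shRNA muscle 2 held the highest value of 7 genes (Top2a, Mcm2, Mcm3, Mcm5, Mcm6, Pcna and Ccnd1) and the lowest of none. Control muscle 1 held the highest value of 6 genes, whereas control muscles 2 and 3 held the lowest value of 8 and 9 genes. The control muscles thus differed among themselves in these genes. How often each muscle was highest or lowest over all genes was not counted, so this order is not shown to be particular to the members.

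Markers of the cells that can divide in muscle are given beside these values. The summed level of 10 macrophage markers was 237, 148 and 101 CPM in control and 173, 205 and 222 CPM in Yap-shRNA muscles, with all 10 nominally higher (median log2 fold change 0.29) and none past the threshold. For 1 of the 10, Cd163, named after its values were seen, all 3 Yap-shRNA muscles lay above all 3 control muscles, beside 2.56% of all genes. The log2 fold change of Cd163 was 0.55 (SE 0.25). Control muscle 3, the lowest in macrophage markers, held the lowest value of 5 of the 12 replication genes (Mcm2, Mcm3, Mcm6, Tyms and Chaf1a), and control muscle 2 that of 4 (Mcm4, Mcm5, Mcm7 and Pcna). The share of all genes lowest in these muscles was not counted. Control muscle 1 was the highest of all 6 muscles in macrophage markers and lower in Mcm6 than every Yap-shRNA muscle. The part of macrophage content in the values of these genes was not tested. Of the fibro-adipogenic progenitor markers, which mark the stromal cells of muscle, 5 of 5 were measured. Their summed levels were 1965, 1209 and 1018 CPM in control and 1212, 1216 and 2257 CPM in Yap-shRNA muscles. The highest sums were thus in control muscle 1 and Yap-shRNA muscle 3, the muscles with high tendon markers. All 5 markers were nominally higher (median log2 fold change 0.20) and none passed the threshold. For 1 of them, Ly6a, named after its values were seen, all 3 Yap-shRNA muscles lay above all 3 control muscles, beside 2.56% of all genes. Its log2 fold change was 0.27 (unadjusted p 0.0316 and adjusted p 1.00 in the quasi-likelihood test of edgeR). It was the only 1 of the 5 at an unadjusted p below 0.05, beside 1.75% of all genes. The part of these cells in the values of the members was not tested. The 6 of 7 satellite cell markers with a row summed to 69.3 to 78.2 CPM in control and 66.3 to 89.2 CPM in Yap-shRNA muscles. The 5 endothelial markers summed to 329 to 386 CPM in control and 343 to 373 CPM in Yap-shRNA muscles, so the groups overlapped for both. Smooth muscle (86.5 to 159 CPM in control, 61.9 to 110 CPM in Yap-shRNA), Schwann cell (35.9 to 72.7 and 45.5 to 64.0 CPM) and erythroid markers (90.8 to 154 and 77.4 to 184 CPM), 3 each, also overlapped. All 3 smooth muscle markers were nominally lower (median log2 fold change -0.46), as were all 8 fibre markers (-0.048), and none passed the threshold. Nominally higher and lower were 3 and 3 satellite cell, 4 and 1 endothelial, 1 and 2 Schwann cell, 1 and 2 tendon, and 3 and 0 erythroid markers. None of the 9 T and NK cell, 4 B cell and 4 neutrophil markers had a row.

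Further genes of the same pathways were taken from fixed lists. Of 50 other mitotic genes, 16 had a row, 8 nominally higher and 8 lower, with 0 past the threshold and a median log2 fold change of -0.0098. The 3 with the highest level per kilobase were Pttg1 (securin, which holds back separase until anaphase), Aurka (a spindle pole kinase) and Ncapd2 (a condensin subunit). Pttg1 was counted 677, 985 and 863 times in control and 859, 897 and 715 times in Yap-shRNA muscles (log2 fold change -0.056, SE 0.16). Aurka was counted 135, 97 and 149 times against 171, 113 and 123 times (0.087, SE 0.22), and Ncapd2 174, 149 and 193 times against 134, 216 and 177 times (0.0051, SE 0.17). The groups overlapped for all 3. Ccnf (cyclin F), picked out after its values were seen, was counted 5, 8 and 9 times in control and 14, 17 and 16 times in Yap-shRNA muscles with no overlap, and its log2 fold change was 1.06 (SE 0.36), with an unadjusted p of 0.0165 (1 of the 16 below 0.05, beside 1.75% of all genes) and an adjusted p of 1.00 in the quasi-likelihood test of edgeR.

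Of 44 other replication genes, 36 had a row, 16 nominally higher and 20 lower, with 0 past the threshold and a median log2 fold change of -0.032. The most abundant per kilobase were Rpa1 and Rpa2, subunits of the protein that coats single-stranded DNA, and Gins4, part of the active helicase. Rpa1 was counted 824, 882 and 872 times in control and 787, 896 and 805 times in Yap-shRNA muscles (log2 fold change -0.073, SE 0.093). Rpa2 was counted 338, 342 and 336 times against 294, 324 and 324 times (-0.13, SE 0.092), and Gins4 137, 141 and 117 times against 119, 137 and 95 times (-0.19, SE 0.17). In scaled levels all 3 Yap-shRNA muscles lay below all 3 control muscles for Rpa2, and also for Pola2 (a subunit of the primase complex) and Tk1 (thymidine kinase), named after their values were seen, which makes 3 of 36 genes beside 2.71% of all genes. Their log2 fold changes were -0.26 for Pola2 (SE 0.11) and -0.30 for Tk1 (SE 0.17). Pola2 had an unadjusted p of 0.0466, as the only 1 of the 36 below 0.05 beside 1.75% of all genes, and both had an adjusted p of 1.00 in the quasi-likelihood test of edgeR.

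Of 31 other G1 and pocket protein genes, 27 had a row, 15 nominally higher and 12 lower, with 0 past the threshold and a median log2 fold change of 0.00042. E2f6 and E2f4, repressive E2F factors, were measured at 149 ± 15.8 against 147 ± 6.38 CPM and at 40.9 ± 5.85 against 39.0 ± 3.77 CPM (control against Yap-shRNA, SD, n = 3 each). Cdkn1a, the p21 inhibitor of cyclin-dependent kinases, was counted 452, 347 and 473 times in control and 562, 564 and 801 times in Yap-shRNA muscles. All 3 Yap-shRNA muscles lay above all 3 control muscles, at 34.3 ± 4.95 against 51.4 ± 10.9 CPM (SD, n = 3 each). Its log2 fold change was 0.58 (SE 0.16), with an unadjusted p of 0.00591 and an adjusted p of 1.00 in the quasi-likelihood test of edgeR. The groups also did not overlap for E2f3 and Lin54, which were nominally higher, and for Cdkn1c (p57) and E2f2, which were nominally lower. These 4 genes were named after their values were seen, and none passed the threshold. With Cdkn1a, the groups did not overlap for 3 of the 27 genes above and 2 below, beside 2.56% and 2.71% of all genes. Cdkn1a was the only 1 of the 27 at an unadjusted p below 0.05, beside 1.75% of all genes.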

How the data were processed

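PolyA+ RNA of 6 TA muscles was sequenced by the submitters, and the authors deposited raw counts of reads on each gene. The submitters' processing notes name bcl2fastq 2.20.0.422 and build GRCm38. The mapping and counting of this series, and its strand setting, are not given in the sources used here; the methods, written for sorted nuclei, name Skewer, STAR, featureCounts and a filter that drops genes averaging under 10 reads. Overlapping genes are therefore uncertain. Library totals ranged from 11987167 to 12710393 counts, and within each group any pair of libraries had a chi-square per degree of freedom of 7.71 to 21.7, so none repeated another.

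After TMM scaling, genes were compared in edgeR 4.0.16 under R 4.3.3 (quasi-likelihood test, group only, Benjamini-Hochberg over 13226 genes, threshold 0.05). The biological coefficient of variation was 15.7%. Standard errors were the log2 fold change divided by the root of the test statistic. CPM per kilobase used the merged length of all annotated exons of a gene in GENCODE release M21. This can exceed the length of the transcripts that are expressed, which lowers the level per kilobase and can shift the order of genes. The script was tested on simulated counts. Promoters came from RefSeq (GRCm38.p6). The variance ratio is the chi-square of the counts over the 6 libraries per degree of freedom, given their total counts without TMM scaling. Alternatives were DESeq2 1.42.0, the likelihood ratio test, limma 3.58.1 voom, RLE size factors, a filter at a mean of at least 50 counts, a replicate block and leaving out muscles. Leaving out the pair of muscles with high tendon markers was chosen after seeing the data. Named genes are every member with a row, Yap1, the 3 genes of each pathway list with the highest level per kilobase, and any past the threshold; genes outside this rule are said in the text to be named after their values were seen. The members and lists were chosen with earlier results of these data known.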

Additional observations from a re-analysis of the deposited data

How the results depend on the processing

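No member passed the threshold under any alternative. Over all genes the count past the threshold was 0 in the quasi-likelihood test of edgeR, which was run with no further count filter. The count was 0 also under RLE size factors, limma-voom or a mean of at least 50 counts, whereas DESeq2 gave 5 and the likelihood ratio test 5. At an unadjusted p below 0.05 it was 232 by the quasi-likelihood test and 135 with DESeq2. The count past the threshold was 0 to 1 with each muscle left out, and 3 without control muscle 1 and Yap-shRNA muscle 3, a setting chosen after seeing the data. The adjusted p of Yap1 was 5.85e-07 in DESeq2 and 2.22e-06 in the likelihood ratio test, at log2 fold changes of -1.10 in each, and it had log2 fold changes of -1.29 to -0.93 with each muscle left out.

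Muscles sharing a replicate number deviated together with correlations of -0.063, 0.33 and -0.36 over 9809 genes, so the numbers were not taken as pairs. With a replicate block the count of genes past the threshold stayed 0 (213 at an unadjusted p below 0.05), Mcm6 had a log2 fold change of 0.82, Yap1 of -1.13 (adjusted p 0.105 by edgeR's quasi-likelihood test), and no call of a member changed.

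The direction of 13 of the 25 members turned when a single muscle was left out, and none of these passed the threshold in either direction. Their log2 fold changes ran from -0.22 to 0.14 for Cdk2, -0.052 to 0.11 for Cdk4, -0.24 to 0.24 for Cdk6, -0.18 to 0.019 for Cdkn1b, -0.28 to 0.37 for Chaf1a, -0.16 to 0.33 for E2f1, -0.23 to 0.35 for Mcm3, -0.27 to 0.12 for Mcm4, -0.0097 to 0.14 for Mcm7, -0.050 to 0.17 for Pcna, -0.25 to 0.22 for Prc1, -0.037 to 0.57 for Rrm2 and -0.028 to 0.23 for Tpx2. With limma-voom Cdk6 turned to 0.0033. Without control muscle 1 and Yap-shRNA muscle 3, the direction turned for Mcm4 (0.22), Rrm1 (0.024, against -0.14 at its lowest with 1 muscle left out), Ccnd3 (-0.017), Cdk2 (0.24), Cdk4 (-0.065), Cdk6 (0.27), E2f1 (-0.055) and Cdkn1b (0.043), while the values were 0.31 for Tpx2, 0.11 for Prc1, 0.49 for Mcm3, 1.13 for Mcm6, 0.15 for Mcm7, 0.16 for Pcna, 0.18 for Rrm2, -0.16 for Cdc45, 0.15 for Chaf1a and 0.23 for Rb1, and the medians were 0.21 for the mitotic and 0.20 for the replication genes; the cause was not tested. Over all settings that left out muscles, the difference in summed level ran from 0.0870 to 1.35 CPM for the mitotic, from 0.654 to 10.9 CPM for the replication and from 1.13 to 7.87 CPM for the G1 genes. Median log2 fold changes with a muscle left out ran from -0.042 to 0.15 for the mitotic, 0.095 to 0.20 for the replication and 0.019 to 0.14 for the G1 genes. A mean of at least 50 counts kept 12 members, none of them mitotic and Mcm6 not among them, so those were not run. Relative to the count, counting error is largest for the genes with the fewest reads, such as Kif11 (60 in all), Tyms (61) and Top2a (65).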
